A study of Mus musculus with 9 samples.

Results

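The natriuretic peptide system of the mouse heart was followed through 9 genes: the peptide genes Nppa, Nppb and Nppc, the receptor genes Npr1, Npr2 and Npr3, and the enzyme genes Corin, Furin and Mme. They were taken from a table of RNA counts for 38293 genes by matching Ensembl gene IDs to these symbols, and all 9 had a row. The RNA came from the left ventricle of 9 male C57BL/6 mice aged 8 weeks, with no transgene or deletion named in the labels. There were 3 mice at 14 days after ischemia-reperfusion (I/R), 3 mice at 1 day after I/R and 3 sham-operated mice, and the injured tissue was the infarct region. I/R was made by tying off the left anterior descending (LAD) artery of the heart for 1 hour and then letting blood return. The 14-day libraries have a single column name between them, that of mouse 7, though the labels list mice 7, 8 and 9. The letters A, B and C therefore stand for these libraries here and carry no order. The 1-day mice carry the numbers 4, 5 and 6 and the sham mice 1, 2 and 3. The labels do not give how long after surgery the sham tissue was taken, so time after surgery and injury cannot be told apart in the comparisons with sham. Those comparisons also share the same 3 sham libraries.

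Natriuretic peptides are hormones that the heart releases when its muscle is stretched, and they promote salt excretion, vessel relaxation and restraint of growth and scarring. Nppa encodes atrial natriuretic peptide (ANP), made mostly by the atria in the adult and by ventricular muscle in the fetus and under stress; Nppb encodes B-type natriuretic peptide (BNP), a standard clinical marker of heart failure; Nppc encodes C-type natriuretic peptide (CNP), made largely by endothelium. Corin cuts the ANP precursor and furin cuts the BNP precursor to give the active hormones. ANP and BNP act on the guanylyl cyclase receptor encoded by Npr1 and CNP on that encoded by Npr2, both of which make cyclic GMP (cGMP). The receptor encoded by Npr3 removes the peptides from the circulation, and neprilysin, encoded by Mme, degrades them.

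Nppa and Nppb lie side by side on the plus strand of mouse chromosome 4 (GRCm38), at chr4:148000722-148002079 and chr4:147985788-147987205, with 13516 bases between them. Their promoters are shown because these 2 genes had the largest rises among the 8 tested. Each line gives the 250 bases before and 50 bases after the transcript start in RefSeq (GRCm38.p6), 5′ to 3′ on the plus strand. Capitals mark matches, on either strand, to letters bound by factors known to act on these genes.
Nppa promoter, chr4:148000472-148000771: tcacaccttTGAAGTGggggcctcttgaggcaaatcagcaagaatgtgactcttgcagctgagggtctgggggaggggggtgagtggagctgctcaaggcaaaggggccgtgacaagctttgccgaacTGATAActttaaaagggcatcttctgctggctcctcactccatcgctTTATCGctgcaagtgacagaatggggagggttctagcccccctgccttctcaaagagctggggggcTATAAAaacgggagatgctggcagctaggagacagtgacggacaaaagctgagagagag
Nppb promoter, chr4:147985650-147985949: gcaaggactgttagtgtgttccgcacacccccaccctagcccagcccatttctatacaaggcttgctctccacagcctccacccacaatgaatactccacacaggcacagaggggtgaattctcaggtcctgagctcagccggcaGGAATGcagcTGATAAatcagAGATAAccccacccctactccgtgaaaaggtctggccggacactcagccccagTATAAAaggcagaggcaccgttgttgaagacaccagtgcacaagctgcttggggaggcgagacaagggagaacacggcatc
Both windows held a pair of matches to the GATA letters NGATAA and 1 match to the TATA box letters TATAAA. The GATA matches of Nppa began 122 bases before the start on the plus strand and 75 bases before it on the minus strand; those of Nppb began 95 and 84 bases before the start, both on the plus strand. The Nppa window also held TNAAGTG, the letters of an NKX2-5 element, and the Nppb window held CATTCC, the letters of the MCAT element bound by TEAD factors, on the minus strand. No match to the AP-1 letters TGANTCA or the cyclic AMP element TGACGTCA was found in either window. The matches do not overlap each other. Of 32851 RefSeq promoters of the same length, 25.3% held NGATAA, 13.6% TATAAA, 14.7% CATTCC, 11.5% TNAAGTG, 7.81% TGANTCA and 1.79% TGACGTCA. The RefSeq start of Nppb lies 112 bases inside the start used in GENCODE M21.

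The libraries held from 20215781 to 36816818 counts, of which mitochondrially encoded and ribosomal RNA genes took 52.0% to 71.8%. Levels are given as counts per 1M counts (CPM) of a library scaled by the trimmed mean of M values (TMM). The 10 cardiomyocyte marker genes summed to 48480 to 62820 CPM at 14 days, 34130 to 51220 CPM at 1 day and 62310 to 69410 CPM in sham, and 8 of the 10 fell at 1 day. Most of that sum came from Ttn alone, which averaged 37310, 29640 and 43230 CPM in the same order. Ttn was not among the 8 that fell. Scaling to cardiomyocyte marker counts, used below, is therefore mostly scaling to Ttn. Neutrophil markers summed to 2.22 to 3.598 CPM at 14 days, 50.8 to 143.6 CPM at 1 day and 1.72 to 5.11 CPM in sham. Fibroblast markers summed to 2069 to 5112 CPM, 794.7 to 1106 CPM and 567.6 to 1018 CPM in the same groups. The 8 atrial markers summed to 55.3 to 59.9 CPM at 14 days, 13.6 to 30.6 CPM at 1 day and 44.4 to 54.6 CPM in sham. Few genes set that sum: Kcnj3 averaged 29.9, 10.8 and 43.4 CPM and Dkk3 18.8, 0.54 and 1.31 CPM in the same order. At 1 day Kcnj3 fell and Nr2f2 rose (6.78 CPM against 4.095 CPM in sham). The defining atrial muscle genes Myl7, Bmp10 and Sln had 18, 2 and 1 counts over all 9 libraries together. In tissue RNA of this kind, fewer cells of a type and less RNA per cell cannot be told apart.

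Against sham, 1 day after I/R brought the widest change in the system. Nppa, Nppb and Furin rose, Npr3 and Mme fell, and Npr1, Npr2 and Corin did not pass the test, so 5 of the 8 genes with enough counts changed. Over all 14124 tested genes 54.2% changed at 1 day, 29.4% upward and 24.8% downward, by the quasi-likelihood test of edgeR at an adjusted p under 0.05. The count of 5 of 8 is therefore near the background. The median size of the change among the 8 genes was 0.83 on the log2 scale, against 0.45 over all tested genes. For 14 days against sham this median was 0.30, against 0.23 over all tested genes. For 14 days against 1 day it was 0.77, against 0.43. At 14 days 3 of the 8 differed from sham, Nppa and Nppb upward and Furin downward. The background at 14 days was 14.4% of genes, 8.75% upward and 5.64% downward. Between 14 days and 1 day 5 of the 8 differed, with Npr3 and Mme higher and Nppb, Npr1 and Furin lower at 14 days. That background was 51.9%, with 25.1% of genes higher and 26.8% lower at 14 days. With libraries scaled to their total count only, the upward and downward counts over all genes were 6859 and 1058 at 1 day, against 4153 and 3496 with TMM. At 14 days against sham they were 720 and 112, against 1236 and 797. For 14 days against 1 day they were 1067 and 5469, against 3547 and 3788. The 14-day count over all genes, 2033, was 912, 478 and 1025 without sham mouse 1, 2 and 3, 722 and 775 without libraries B and C, and 3221 without mouse 6, while the number of the 8 genes called was 3 in each of the 9 fits with 1 library left out.

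**Figure D1:**
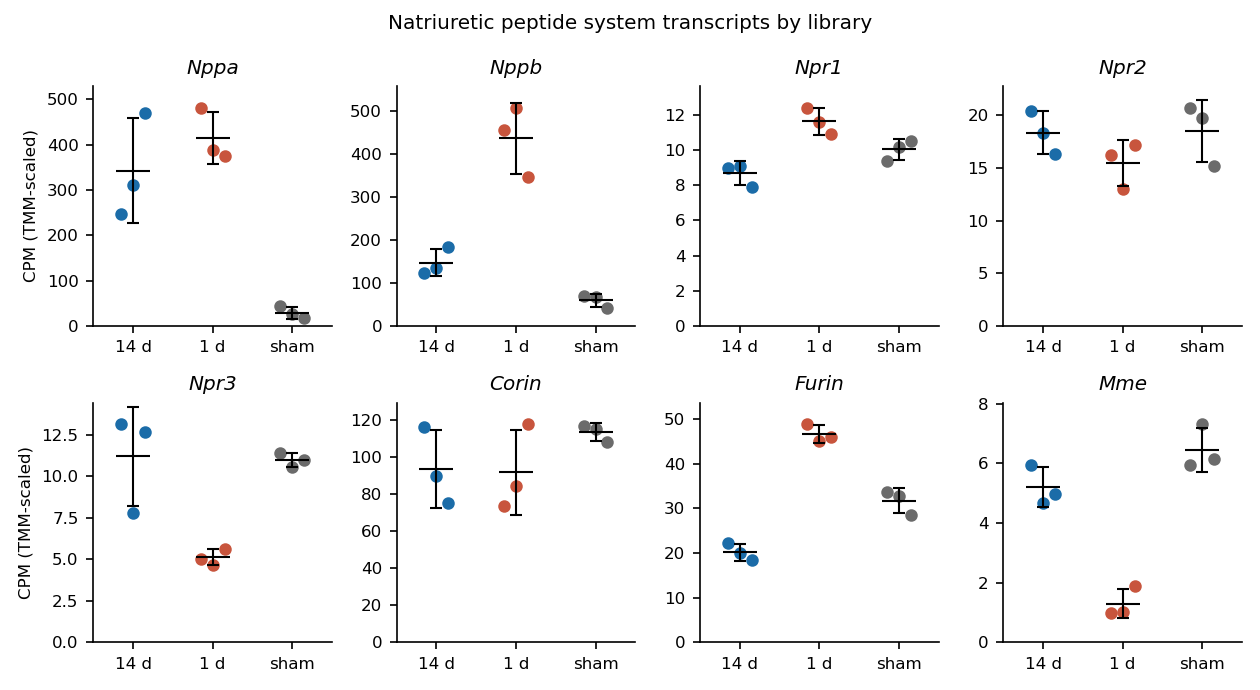
CPM (TMM-scaled, linear axes that start at 0) of the 8 tested genes in each library at 14 days and 1 day after I/R and in sham; points are mice, lines are means and bars are SD (n = 3 per group). Nppa is high at both times, Nppb is highest at 1 day, Npr3 and Mme are low at 1 day, and Furin is high at 1 day and low at 14 days.

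Nppa had 246, 311.6 and 469.9 CPM in the 14-day libraries A, B and C, 481, 387.8 and 373.9 CPM in the 1-day mice 4, 5 and 6, and 42.9, 25.7 and 17.1 CPM in sham mice 1, 2 and 3. Every library from injured tissue was far above every sham library, and the 14-day and 1-day libraries overlapped. The rise was 14.4-fold at 1 day (95% interval 8.37 to 24.9; log2 fold 3.85, SE 0.35, edgeR adjusted p = 4.407e-05) and 11.9-fold at 14 days (6.96 to 20.5; log2 fold 3.58, SE 0.35, adjusted p = 0.0015). The 14-day and 1-day levels did not differ by the test, with a log2 difference of -0.27 and an interval from -0.97 to 0.42 (edgeR adjusted p = 0.49). Ranked by log2 fold, Nppa was number 29 from the top of 14124 genes at 14 days and number 89 at 1 day. The annotated antisense gene Gm13054 covers 532 of the 865 exonic bases of Nppa (61.5%). Gm13054 itself had 56 counts over all 9 libraries, while Nppa had 267 to 21255 in each, and the strand setting of the counting is not given in the sources used here.

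Nppb had 122.7, 135.7 and 183.9 CPM at 14 days, 456.1, 507.3 and 346.1 CPM at 1 day, and 70.4, 66.7 and 41.2 CPM in sham, in the same order of libraries. The groups did not overlap: all 1-day libraries lay above all 14-day libraries, which lay above all sham libraries. Nppb rose 7.33-fold at 1 day (95% interval 5.08 to 10.6; log2 fold 2.87, SE 0.24, edgeR adjusted p = 1.562e-05) and 2.48-fold at 14 days (1.75 to 3.51; log2 fold 1.31, SE 0.23, adjusted p = 0.00597). Nppb was lower at 14 days than at 1 day, at 0.338 times the 1-day level (log2 fold -1.57, SE 0.23, edgeR adjusted p = 0.000314). No other annotated gene shares exonic bases with Nppb.

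The balance between both hormone transcripts was compared within libraries, because a ratio of counts within a library does not depend on the scaling. There were 0.499, 0.435 and 0.391 Nppb counts per Nppa count at 14 days, 0.948, 1.31 and 0.926 at 1 day, and 1.64, 2.59 and 2.42 in sham. Nppb counts exceeded Nppa counts in every sham library and Nppa counts exceeded Nppb counts in every 14-day library, while at 1 day Nppb counts were slightly the lower in mice 4 and 6 and the higher in mouse 5. On the log2 scale the ratio averaged -1.19 ± 0.175 at 14 days, 0.07 ± 0.278 at 1 day and 1.12 ± 0.354 in sham (SD, n = 3 per group), a difference from sham of -2.30 at 14 days and -1.05 at 1 day. The two-sided exact permutation p was 0.1 for each of the 3 comparisons, the smallest that 3 against 3 can give. Adjusted over the 12 ratio comparisons made here it was 0.133.

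**Figure D2:**
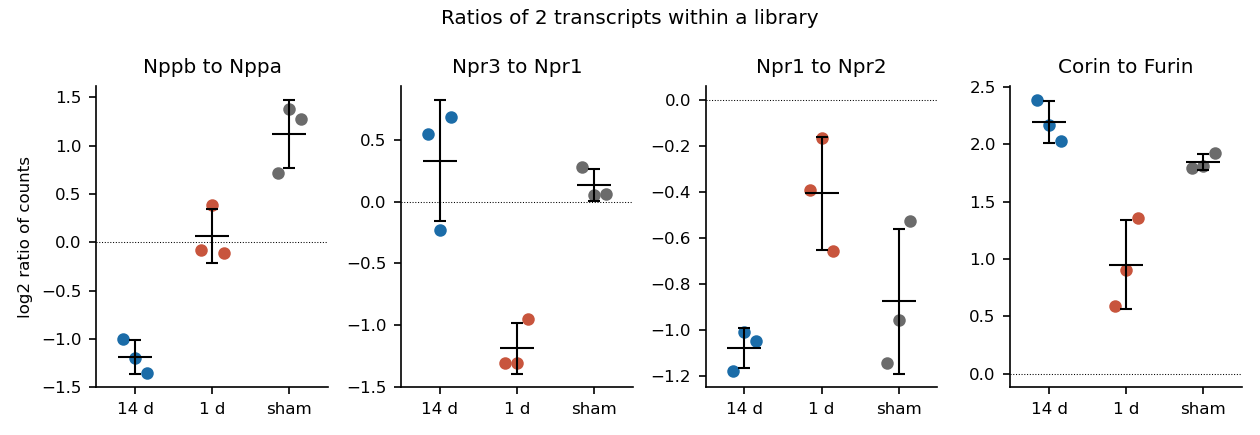
Log2 ratios of counts of 2 transcripts within each library at 14 days, 1 day and sham; points are mice, lines are means, bars are SD (n = 3 per group), and the dotted line marks equal counts. The Nppb to Nppa ratio separates all 3 groups, with sham highest at 1.12 and 14 days lowest at -1.19; the Npr3 to Npr1 ratio is lowest at 1 day at -1.18.

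Nppc was barely detected. It had 0, 0 and 2 counts in 14-day libraries A, B and C, 0, 1 and 0 counts in mice 4, 5 and 6, and 0, 0 and 1 counts in sham mice 1, 2 and 3. With 4 counts in all it was not tested, and no difference was detectable at this depth.

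Per kilobase of exon, which allows levels of different genes to be compared, Nppa and Nppb were above the receptors, Furin and Mme in every library. Nppa averaged 396 CPM per kb at 14 days, 479 at 1 day and 33.0 in sham, which put it at rank 28, 23 and 361 of 13962 genes in the same order of groups. Nppb averaged 189, 559 and 76.1 CPM per kb and ranked 54, 19 and 161. In sham the order was Nppb, Nppa, Corin, Npr2, Furin, Npr1, Npr3 and Mme. The neighbours Nppa and Corin overlapped there, at 19.7 to 49.6 and 20.02 to 21.7 CPM per kb, as did Npr2 and Furin, while the other neighbours did not. At 1 day Nppb and Nppa overlapped at the top and Furin stood above Npr2. At 14 days Nppa stood above Nppb without overlap, and Npr2 stood above Furin without overlap.

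Among the receptors, the clearance receptor gene Npr3 fell at 1 day and was near its sham level at 14 days. Npr3 had 13.1, 7.77 and 12.7 CPM at 14 days, 5.02, 4.69 and 5.65 CPM at 1 day, and 11.4, 10.6 and 11.0 CPM in sham. The 1-day libraries lay below all others, and 14-day library B lay between them and sham. At 1 day Npr3 was 0.465 times sham (log2 fold -1.10, SE 0.18, edgeR adjusted p = 0.000511), and at 14 days the log2 fold against sham was 0.02 with an interval from -0.35 to 0.40 (adjusted p = 0.95). The 14-day level was 2.18 times the 1-day level (log2 fold 1.12, SE 0.18, edgeR adjusted p = 0.000453). The cardiomyocyte markers also fell at 1 day. With libraries scaled to the counts of those markers, a setting chosen after the data were seen, the 1-day fold of Npr3 was -0.37 on the log2 scale and was no longer called (edgeR adjusted p = 0.15).

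Transcripts of the guanylyl cyclase receptors moved little. Npr1, the ANP and BNP receptor gene, had 9.0, 9.12 and 7.89 CPM at 14 days, 12.4, 11.6 and 10.9 CPM at 1 day, and 9.38, 10.2 and 10.5 CPM in sham. Each of the 14-day libraries lay below, and each of the 1-day libraries above, all sham libraries. Neither difference from sham passed the test: the log2 fold was -0.21 at 14 days (edgeR adjusted p = 0.20) and 0.22 at 1 day (adjusted p = 0.089; interval -0.0039 to 0.44). The 14-day level was below the 1-day level, at 0.745 times (log2 fold -0.42, SE 0.10, edgeR adjusted p = 0.00473). Scaled to total counts or to cardiomyocyte marker counts, Npr1 was called higher at 1 day, with log2 folds of 0.71 and 0.97 (edgeR adjusted p = 0.00459 and 0.00112), where the median of all genes was 0.53 and 0.80. The antisense gene Gm16048 covers 559 exonic bases of Npr1 (11.7%) and had 1 count in all.

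Npr2, the CNP receptor gene, had 20.4, 18.4 and 16.4 CPM at 14 days, 16.3, 13.0 and 17.2 CPM at 1 day, and 20.7, 19.8 and 15.2 CPM in sham. All 3 groups overlapped. The log2 folds against sham were -0.02 at 14 days (interval -0.32 to 0.28, edgeR adjusted p = 0.94) and -0.27 at 1 day (interval -0.57 to 0.04, adjusted p = 0.13). Without sham mouse 3, the lowest sham library, the 1-day fold was -0.39 and was called (edgeR adjusted p = 0.0408). Its sign turned to 0.21 with total counts and to 0.48 with cardiomyocyte marker counts, where it was called (edgeR adjusted p = 0.0267).

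There were 1.46, 0.852 and 1.61 Npr3 counts per Npr1 count at 14 days, 0.405, 0.404 and 0.519 at 1 day, and 1.21, 1.04 and 1.04 in sham. All 1-day libraries lay below all sham libraries, and the 14-day libraries lay on both sides of sham. These are ratios of counts, not of levels: Npr3 has the longer exons, and per kilobase it stood below Npr1 in all 9 libraries, at 1.13 to 1.21 against 1.96 to 2.20 CPM per kb in sham. The log2 ratio at 1 day was 1.32 lower than in sham (two-sided exact permutation p = 0.1, the smallest possible; adjusted 0.133), and at 14 days it differed from sham by 0.20 (exact permutation p = 0.6). For Npr1 against Npr2 the log2 ratio averaged -1.08 at 14 days, -0.41 at 1 day and -0.87 in sham, so that Npr2 had more counts than Npr1 in all 9 libraries. That ratio overlapped with sham at both times (exact permutation p = 0.4 at 14 days and 0.2 at 1 day).

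The enzyme genes moved in different directions. Furin, which also cuts many other precursor proteins, had 22.2, 19.96 and 18.4 CPM at 14 days, 48.8, 45.1 and 46.0 CPM at 1 day, and 33.7, 32.9 and 28.5 CPM in sham. The 3 groups did not overlap, with 1 day above sham and 14 days below it. Furin was 1.47 times sham at 1 day (log2 fold 0.56, SE 0.10, edgeR adjusted p = 0.000674) and 0.637 times sham at 14 days (log2 fold -0.65, SE 0.10, adjusted p = 0.00341). The 14-day level was 0.434 times the 1-day level (log2 fold -1.21, SE 0.10, edgeR adjusted p = 8.953e-06). The 14-day call against sham ended with total counts (-0.57, edgeR adjusted p = 0.0752) and with cardiomyocyte marker counts (-0.37, adjusted p = 0.18).

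Mme, the neprilysin gene, had 5.96, 4.69 and 4.99 CPM at 14 days, 1.00, 1.03 and 1.88 CPM at 1 day, and 5.95, 7.31 and 6.13 CPM in sham. The 1-day libraries stood well below the others, and the 14-day libraries overlapped with sham only at library A. At 1 day Mme was 0.194 times sham (95% interval 0.139 to 0.272; log2 fold -2.36, SE 0.22, edgeR adjusted p = 2.449e-05), which ranked it number 94 from the bottom of 14124 genes. At 14 days the log2 fold against sham was -0.32 (interval -0.74 to 0.10, edgeR adjusted p = 0.29), and the level was 4.13 times that at 1 day (log2 fold 2.05, SE 0.22, adjusted p = 4.98e-05). The counts behind the 1-day values were 44, 26 and 42. The 6 tested neutrophil markers were higher at 1 day, when Mme was lowest. The part of cell type shares in the Mme level was not tested. Scaled to cardiomyocyte marker counts, the 1-day log2 fold of Mme was -1.64 and was still called.

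Corin had 116.5, 89.7 and 75.1 CPM at 14 days, 73.6, 84.5 and 117.9 CPM at 1 day, and 117, 115.6 and 108.1 CPM in sham. Sham was tight, while at each time after I/R 1 library reached the sham level and the other 2 lay below it. The log2 folds were -0.28 at 14 days (SE 0.19, edgeR adjusted p = 0.35) and -0.31 at 1 day (SE 0.19, adjusted p = 0.19). The libraries with most Corin were also those with the highest cardiomyocyte marker sum of their group, 62820 CPM in library A and 51220 CPM in mouse 6. The part of the cardiomyocyte share in the Corin level was not tested. Without mouse 6 the 1-day fold was -0.53 and was called (edgeR adjusted p = 0.0111), and scaled to cardiomyocyte marker counts it turned to 0.40 and was called (adjusted p = 0.0178). With total counts it was 0.14.

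Corin counts per Furin count were 5.24, 4.50 and 4.08 at 14 days, 1.51, 1.87 and 2.56 at 1 day, and 3.48, 3.52 and 3.79 in sham. The 3 groups did not overlap, with 1 day lowest and 14 days highest. The log2 ratio averaged 2.19 ± 0.183 at 14 days, 0.95 ± 0.385 at 1 day and 1.85 ± 0.068 in sham (SD, n = 3 per group; two-sided exact permutation p = 0.1 for each of the 3 comparisons, adjusted 0.133).

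**Figure D3:**
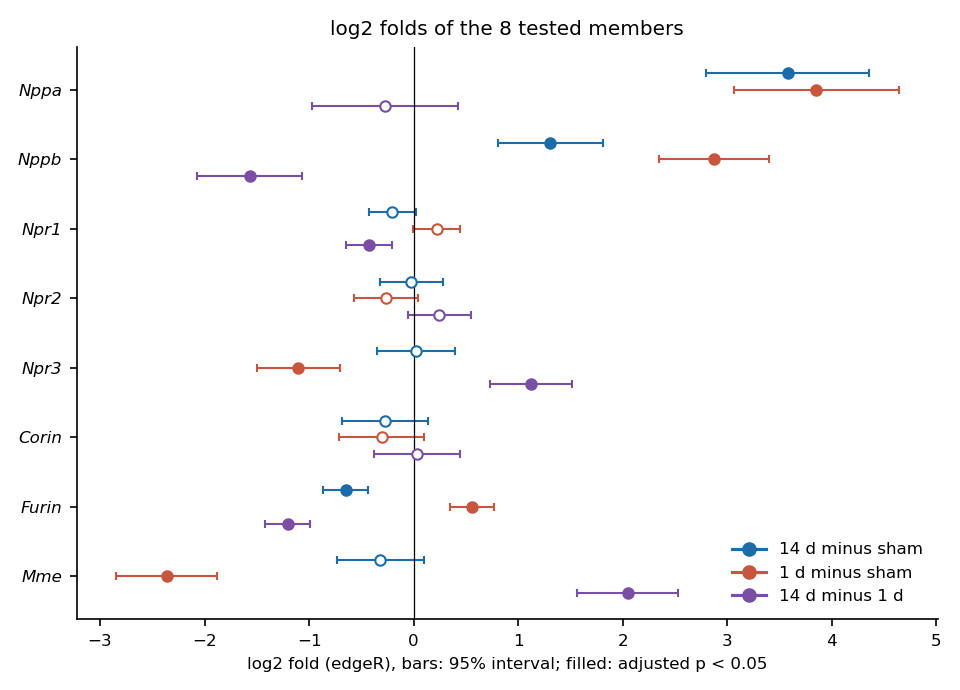
Log2 folds from edgeR with 95% intervals for the 8 tested genes, for 14 days against sham, 1 day against sham and 14 days against 1 day; filled points have an adjusted p under 0.05. Nppa lies far right in both comparisons with sham (3.58 and 3.85), Mme far left at 1 day (-2.36), and Furin on opposite sides at the 2 times (-0.65 and 0.56).

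Nppa and Nppb were set beside neighbouring genes within 100 kb on chromosome 4. At 14 days the clone gene 2510039O18Rik had a log2 fold against sham of -0.43 and was called. At 1 day 2510039O18Rik was called higher, close to the threshold (0.27, edgeR adjusted p = 0.0497). Called lower were the mitochondrial fusion gene Mfn2 (-0.72), the collagen lysyl hydroxylase gene Plod1 (-0.25, edgeR adjusted p = 0.0394) and the angiotensin receptor-associated gene Agtrap (-0.77). Over all tested genes 54.2% were called at 1 day and 14.4% at 14 days. The folds of Nppb and Nppa, from 1.31 to 3.85, lay above the folds of these neighbouring genes. No test of the difference between genes was made.

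The peptides signal through cGMP, and 5 lists of other genes around that pathway were counted in the same fit. Among 5 tested genes for other enzymes that make cGMP or nitric oxide, 2 rose and none fell at 14 days, the guanylyl cyclase subunit genes Gucy1a1 and Gucy1b1, and at 1 day 1 (Nos3) rose and 2 (Gucy1a1 and Gucy1a2) fell. Over all tested genes 8.75% rose and 5.64% fell at 14 days, and 29.4% rose and 24.8% fell at 1 day. The 1-day fold of Gucy1a2 (-0.38) was 0.09 with total counts and 0.37 with cardiomyocyte marker counts, and was called with neither. Gucy1a1, a subunit of the cyclase that nitric oxide activates, averaged 42.6 ± 9.34 CPM at 14 days, 10.2 ± 1.23 CPM at 1 day and 19.3 ± 3.25 CPM in sham (SD, n = 3 per group). All 3 groups stood apart, with a log2 fold of 1.15 at 14 days (SE 0.17, edgeR adjusted p = 0.00361) and -0.91 at 1 day (SE 0.18, adjusted p = 0.00145). The 1-day call ended with total counts (-0.42, edgeR adjusted p = 0.083). Fibroblast markers were also highest at 14 days, and their part in the Gucy1a1 level was not tested. Nos3, the endothelial nitric oxide synthase gene, had a 1-day fold of 0.36 that was called in the full fit (edgeR adjusted p = 0.0475) and not called in 7 of 9 fits with 1 library left out, namely any sham library, mouse 4 or 5, or 14-day library B or C (log2 fold from 0.21 to 0.49 over the 9, adjusted p up to 0.24).

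Among 9 tested effectors of cGMP, 3 rose and 5 fell at 1 day, and none was called at 14 days by edgeR, DESeq2 or limma-voom, with 0 at an unadjusted p under 0.05. Over all tested genes 29.4% rose and 24.8% fell at 1 day, and 14.4% were called at 14 days. The 1-day calls were Prkg1, Ppp1r12a and Vasp upward and Rgs2, Rgs4, Cnga3, Mrvi1 and Abcc4 downward. The Abcc4 call (-0.31) ended without sham mouse 1 or 2, mouse 4 or 5, or library B (-0.42 to -0.25 over the 9 fits, edgeR adjusted p up to 0.16), and its fold was 0.16 with total counts and 0.44 with cardiomyocyte marker counts. Mrvi1 (-0.69) was not called with total counts (-0.22) or cardiomyocyte marker counts (0.03). Prkg1, which encodes the cGMP-dependent kinase, had 6.63 ± 0.149 CPM at 14 days, 8.41 ± 0.803 CPM at 1 day and 6.02 ± 0.764 CPM in sham (SD, n = 3 per group). It rose at 1 day (log2 fold 0.47, SE 0.12, edgeR adjusted p = 0.00661) and had a log2 fold of 0.13 at 14 days. Ppp1r12a, a regulatory subunit of myosin phosphatase, rose at 1 day (log2 fold 0.39), and Rgs4, a regulator of G protein signalling, fell (-0.99; -0.28 and not called with cardiomyocyte marker counts). Vasp, whose protein is a classical substrate of that kinase, rose by 0.86 on the log2 scale.

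Among 10 tested genes named for phosphodiesterases that act on cGMP or for their subunits (such as Pde6d), 2 rose and 5 fell at 1 day. At 14 days 2 (Pde1a and Pde1b) rose and none fell. The shares over all genes were 29.4% and 24.8% at 1 day, and 8.75% and 5.64% at 14 days. Without 1 library the number that fell at 1 day was 2 (mouse 4), 3 (any sham mouse or mouse 5) or up to 5, and the number that rose at 14 days was 0 (sham mouse 1 or 2 or library B), 1 (sham mouse 3 or library C) or up to 3. Pde5a, the target of sildenafil, fell at 1 day (log2 fold -0.60, SE 0.13, edgeR adjusted p = 0.00263), with 8.18 ± 1.24 CPM at 14 days, 4.10 ± 0.104 CPM at 1 day and 6.21 ± 0.313 CPM in sham (SD, n = 3 per group). Its 1-day fold was -0.12 with total counts and 0.15 with cardiomyocyte marker counts, and was called with neither. Pde9a, known to break down natriuretic peptide-driven cGMP, had 1.63, 1.45 and 1.52 CPM on average at 14 days, 1 day and sham, and was not called in any comparison. Of the calcium-activated phosphodiesterase genes, Pde1a rose at 1 day by a log2 fold of 1.30. Pde1c was called lower (-0.76), but not with total counts (-0.31, edgeR adjusted p = 0.12) or cardiomyocyte marker counts (-0.07, adjusted p = 0.69). Pde1a was also called at 14 days (1.26, edgeR adjusted p = 0.0157), but not without sham mouse 1, sham mouse 2 or 14-day library B (log2 folds from 0.94 to 1.503 over all 9 fits with 1 library left out, adjusted p up to 0.071). Pde2a was not analysed here.

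Among 10 other peptidases that process or break down peptides, 3 rose and 5 fell at 1 day, and 2 (Ace and Fap) rose and none fell at 14 days, beside the same shares over all genes of 29.4% and 24.8% at 1 day and 8.75% and 5.64% at 14 days. Without 1 library the number that rose at 1 day was 0 (sham mouse 2 or mouse 4), 1 (sham mouse 3 or mouse 5) or 3, and the number that fell was 3 to 5, with 3 without sham mouse 1 or 2 or mouse 4 or 5. At 14 days 1 rose without any sham mouse or library B or C, and 4 without mouse 6 or library A. Pcsk6, a convertase known to activate corin, had 38.4, 46.7 and 54.8 CPM at 14 days, 6.97, 5.92 and 12.7 CPM at 1 day, and 35.7, 38.4 and 34.2 CPM in sham. The 1-day libraries lay far below all others. Its log2 fold was -2.10 at 1 day (SE 0.25, edgeR adjusted p = 0.000145) and 0.37 at 14 days, which did not pass the test. Ace, the angiotensin-converting enzyme gene, rose at 14 days (log2 fold 0.85, SE 0.15, edgeR adjusted p = 0.00551). Ece1, an endothelin-converting enzyme gene, was called higher at 1 day (0.34, edgeR adjusted p = 0.0189), but not without sham mouse 2 or 3 or mouse 4 or 5 (log2 folds from 0.21 to 0.43 over the 9 fits, adjusted p up to 0.11). Ostn, which encodes the natriuretic peptide clearance receptor ligand osteocrin, had 5 counts in all and was not tested.

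Among 22 transcription factors known to act on Nppa or Nppb, none was called higher and 7 fell at 14 days, while none was called higher and 6 fell at 1 day. Over all genes 8.75% rose and 5.64% fell at 14 days, and 29.4% rose and 24.8% fell at 1 day, so the 6 of 22 that fell at 1 day are near the background. Without 1 library the number that fell at 14 days was 3 (sham mouse 2 or library C), 4 (sham mouse 1 or library B) or 5 to 9, and at 1 day it was 3 (mouse 4), 4 (sham mouse 1 or 3 or mouse 5) or 5 to 7. In 1 such fit at 14 days, without mouse 6, and in fits at 1 day without library A or B, 1 was called higher. DESeq2 and limma-voom also called none higher at either time, and 1 was higher at an unadjusted p under 0.05 in edgeR at each time. Nkx2-5, a cardiac homeobox factor, had 8.83, 5.28 and 4.99 CPM at 14 days, 13.3, 12.8 and 10.4 CPM at 1 day, and 15.6, 15.5 and 15.97 CPM in sham. The 14-day libraries lay below all 1-day libraries, and those below all sham libraries. The log2 fold of Nkx2-5 was -1.30 at 14 days (SE 0.19, edgeR adjusted p = 0.00341) and -0.37 at 1 day, which did not pass the test. Gata4, a zinc-finger factor that binds the GATA letters shown in both promoters, had a log2 fold of 0.00 at 1 day and fell at 14 days (-0.46, SE 0.10, edgeR adjusted p = 0.0138). That 14-day call ended without sham mouse 2 or library C (log2 folds from -0.52 to -0.41 over the 9 fits, adjusted p up to 0.073) and with total counts (-0.36, adjusted p = 0.29). At 1 day Mef2a, a MADS-box factor, fell by 0.89 on the log2 scale (-0.19 and not called with cardiomyocyte marker counts). Tead1, a factor of the MCAT element, was called lower at 14 days (-0.32, edgeR adjusted p = 0.0438), but not without any sham mouse, mouse 5 or any 14-day library (-0.36 to -0.28 over the 9 fits, adjusted p up to 0.17).

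Medians of these lists at 1 day depended on the scaling. With TMM they were -0.18 for cGMP synthesis, -0.31 for effectors, -0.34 for phosphodiesterases, -0.46 for peptidases and -0.13 for transcription factors, and with total counts they were 0.30, 0.16, 0.15, 0.02 and 0.34 in the same order, where the median of all tested genes was 0.53 against 0.04 with TMM. With total counts 5 transcription factors were called higher and 2 lower at 1 day, and 0 higher and 2 lower at 14 days. At 14 days the medians with TMM were 0.30, -0.08 (0.01 with total counts), 0.37, 0.28 and -0.28, and that of all genes was 0.01.

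Between 14 days and 1 day, 3 of the 5 synthesis genes were higher and 1 lower at 14 days, as were 4 and 3 of the 9 effectors, 6 and 0 of the 10 phosphodiesterases, 7 and 1 of the 10 peptidases, and 4 and 5 of the 22 transcription factors. Over all tested genes 25.1% were higher and 26.8% lower at 14 days. With total counts the median of all tested genes was -0.38, against 0.005 with TMM. Some genes called higher with TMM were then not called. These were Gucy1a2 (0.30), Mrvi1 (0.21), Pde3b (0.23), Pde6d (0.05), Pde10a (0.15), Pcsk5 (0.63), Ide (0.06), Ace (0.43), Mef2c (0.11) and Tbx20 (0.06). With TMM, Gucy1a1 (log2 fold 2.06), Rgs4 (1.17), Pde1c (0.84) and Pde5a (0.99) were higher at 14 days. Nos3 (-0.71), Ppp1r12a (-0.47), Pcsk7 (-0.42), Nkx2-5 (-0.93) and Gata4 (-0.46) were lower. Pcsk6 had the largest of these differences among the peptidases, 2.47 on the log2 scale (SE 0.25, edgeR adjusted p = 6.843e-05). The differences of Ide (0.44), Tbx20 (0.42) and Prkg1 (-0.34) were called, but each call ended in at least 1 fit with a library left out. For Ide these were the fits without sham mouse 1 or 2, mouse 4 or 5, or library A or B (0.28 to 0.61, edgeR adjusted p up to 0.15). For Tbx20 it was that without mouse 4 (adjusted p = 0.057), and for Prkg1 those without mouse 4 or 6 or any 14-day library (-0.41 to -0.27, adjusted p up to 0.089).

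**Figure D4:**
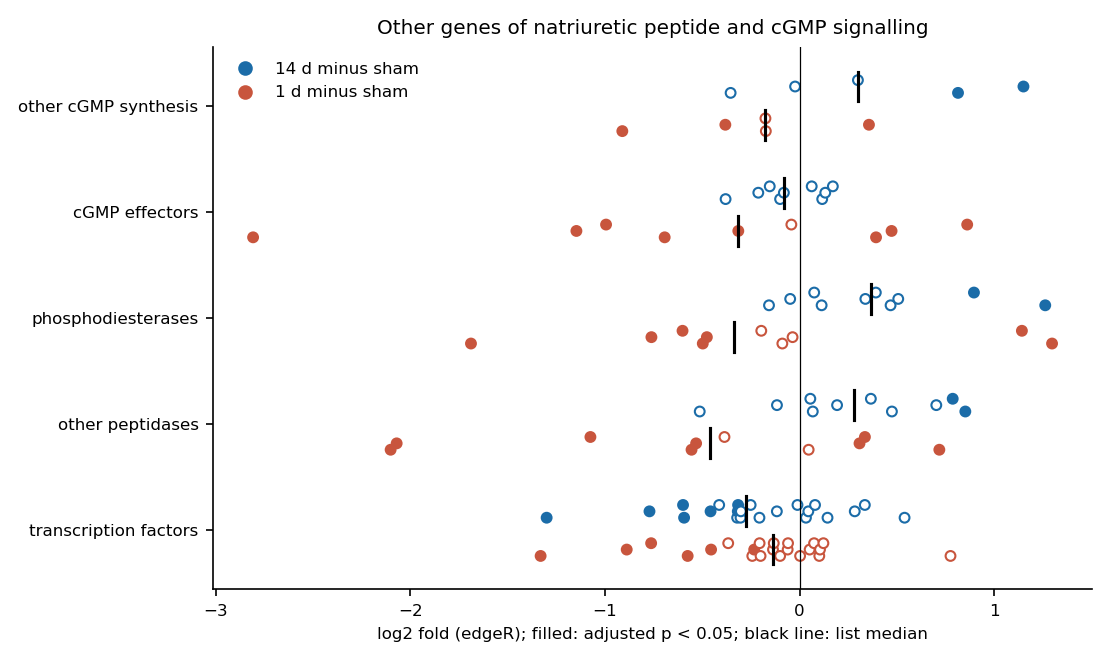
Log2 folds from edgeR of the tested genes of 5 pathway lists at 14 days and 1 day against sham; each point is a gene, filled points have an adjusted p under 0.05, and black lines mark list medians. At 1 day the medians lie between -0.46 and -0.13 with TMM scaling (between 0.02 and 0.34 with total counts), and at 14 days no transcription factor called by the test lies right of 0.

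For each tested gene of the system, the 3 genes with the most similar profile over the 9 libraries were found by Pearson's r of log2 CPM among 7944 named genes with a mean of at least 5 CPM. These values describe libraries that share 3 groups, so any gene that differs among the groups in the same way scores high. The genes most like Nppa were Chmp3 (r = 0.993), Myh7 (0.985) and Inpp5f (0.978). Myh7, the slow myosin heavy chain gene that is also active in the fetal ventricle, averaged 242.7 CPM at 14 days, 263.1 CPM at 1 day and 14.9 CPM in sham, while Chmp3, an endosomal sorting gene, spanned only 27.4, 27.6 and 21.7 CPM. Most like Nppb were the tetraspanin genes Cd63 (0.997) and Tspan4 (0.990), with Rnft1 (0.991) between them. Cd63 averaged 4.96 CPM at 14 days, 11.0 CPM at 1 day and 2.71 CPM in sham. Mme was closest to Hspa12a (0.997), Pttg1 (0.995) and Ss18l2 (0.993), and Furin to Kmt2d (0.995), Caskin2 (0.993) and Jup (0.991). Npr3 was closest to Tnks2 (0.982), Tomm7 (0.976) and Scarb2 (0.971), and Npr1 to Ccnd3 (0.990), Leng8 (0.983) and Dock5 (0.973). Values were lower for Corin, with Chd6 (0.9746), Rbm24 (0.954) and Depdc5 (0.954), and for Npr2, with Ide (0.936), Ppp6r3 (0.926) and Mob2 (0.922), whose groups overlapped.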

How the data were processed

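Per the labels' protocols, TRIzol extracts of the tissue were depleted of ribosomal RNA and sequenced as stranded total-RNA libraries. The authors deposited whole-number counts per gene, not normalized. Per the submitters' processing notes, the reads went through STAR 2.7.1a on GRCm38 (mm10). Which program counted them, with which annotation and strand setting, is not given in the sources used here, so genes with overlapping exons are uncertain. Names and positions came from GENCODE M21.

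All 9 libraries entered 1 fit of edgeR 4.0.16 (R 4.3.3) with TMM factors, filterByExpr (14124 of 38293 genes kept), the quasi-likelihood test and Benjamini-Hochberg adjustment over all tested genes, with a threshold of 0.05. The labels name separate mice, so p-values measure the spread between mice. Replicates differed beyond sampling noise (chi-square over its degrees of freedom was 7.42 to 97.3 by pair). Log2 ratios used counts plus 0.5 and two-sided exact permutation tests. A simulation of 1 day against sham alone was checked with 13259 genes. True log2 folds of 0.5, 1 and 2 were called in 2.04%, 52.1% and 100% of cases, and 7 of 132 calls were false. It changed only 48 to 50 genes at each fold size and gave all genes the same dispersion. In the main fit 7649 of 14124 genes were called at 1 day, so these rates do not carry over to it.

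The 9 genes, the pathway and marker lists and the rules were chosen with earlier results of these data known. Beside the 9 genes, the text names, per list and direction, the called gene with the highest mean CPM and 8 pathway genes chosen by name; genes named beyond these (such as Vasp, Fap and Gucy1b1) were chosen after their values were seen, to complete short counts. Alternatives were DESeq2 1.42.0 (size factors and Wald test), total count only, upper-quartile scaling, scaling without mitochondrial and ribosomal RNA, limma-voom (limma 3.58.1), other filters on low counts, each pair of groups alone and each library left out. Scaling to cardiomyocyte marker counts was chosen after seeing the data, and most of those counts were of Ttn. Some neighbouring-gene results near Nppa are not reported here. Figures were drawn with matplotlib 3.10.9.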

Additional observations from a re-analysis of the deposited data

Results flagged for a closer look

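For 5 of the 8 tested genes the difference from sham was not the same at both times, by edgeR's test of 14 days against 1 day over all 14124 genes. Because both differences share the sham libraries, this is the direct comparison of the 2 times. The log2 fold of 14 days minus 1 day was -1.57 for Nppb, -0.42 for Npr1, 1.12 for Npr3, -1.21 for Furin and 2.05 for Mme. Furin was on opposite sides of sham at the 2 times and was called on both. Nppb was above sham at both times and higher at 1 day. Npr3 and Mme were called below sham at 1 day only, and Npr1 was called against sham at neither time. In this comparison 51.9% of all tested genes were called.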

How the results depend on the processing

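The number of genes called stayed at 5 to 7 at 1 day, 2 or 3 at 14 days and 5 or 6 between the times under 19 alternatives, and all 3 counts kept within 1.5 times. The calls of Nppa and Nppb against sham, of Furin and Mme at 1 day, and of Nppb, Npr1, Npr3, Furin and Mme between the times held under all 19. Signs turned only where no call was made with TMM. With total counts the folds were 0.21 for Npr2 and 0.14 for Corin at 1 day, 0.057 for Npr2 at 14 days, and -0.15 for Npr2 and -0.34 for Corin between the times. With cardiomyocyte marker counts they were 0.48 and 0.40 at 1 day, 0.065 for Npr1 and 0.26 for Npr2 at 14 days, and -0.22 for Npr2 and -0.42 for Corin between the times. The 14-day fold of Npr3 was -0.0011 with DESeq2 size factors and -0.029 with limma-voom. With 1 library left out it ran from -0.12 to 0.23, that of Npr2 from -0.14 to 0.063, and that of Corin between the times from -0.15 to 0.25. Over all genes the 14-day count was 2033 with TMM, 832 with total counts, 1074 with cardiomyocyte marker counts, and from 478 to 3221 with 1 library left out. The cause was not tested. No paired analysis was possible because the groups share no replicate numbers. Depth limits Nppc, with 4 counts in all, and Mme at 1 day.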
